A study of Mus musculus with 20 samples.

Results

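The miR-183, miR-96 and miR-182 cluster is a set of 3 mouse miRNA genes that lie next to each other on 1 strand. Its members were taken as the sequencing tags of 18 to 26 nt that match the 3 hairpins exactly, sorted into the 5p and the 3p arm of each hairpin. This gave 6 arms, of which 5 had at least 1 read, out of 1228 miRNA arms with a read in the 20 libraries. The 3 arms that reached the level needed for testing, out of 378 tested arms, were miR-183-5p, miR-96-5p and miR-182-5p. The cluster took 67 distinct tags and 513951 reads in all.

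The libraries are small RNA libraries from bone marrow of mice killed at 8 to 12 weeks. Dendritic cells were grown with GM-CSF supernatant and macrophages with M-CSF supernatant, both from C57BL/6 wild types and from animals lacking miR-155 (B6.Cg-Mir155tm1.1Rsky/J). Each of these 4 cultures was left without stimulus or given LPS, the bacterial lipopolysaccharide sensed by Toll-like receptor 4, or 1 of the lipoproteins oxLDL, eLDL and LDL. There is 1 library per condition, so the cultures have no replicates, and nothing says whether the libraries of a culture share mice. Dendritic cells had 200 ng/ml LPS overnight at day 8 to 9. The dose and time of LPS in macrophages and of the lipoproteins are not given.

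The libraries held 10254997 to 22796027 reads, of which 5068172 to 11780814 were assigned to miRNA arms. Levels below are counts per 1000000 miRNA reads (CPM). The deleted gene followed the labels: miR-155-5p was at 129 to 9590 CPM in wild-type dendritic cells and 0.312 to 0.79 CPM in the knockout ones, and at 5349 to 39831 against 3.93 to 5.89 CPM in macrophages. The myeloid marker miRNAs miR-142-5p (medians of 18779 CPM in dendritic cells and 25800 in macrophages) and miR-223-3p (2792 and 1749) were high in both cell types. Of the same list, miR-142-3p had medians of 407 and 757 CPM. The last listed marker, miR-511-3p, was lower, at 179 CPM in dendritic cells and 46.1 in macrophages. In every macrophage library 6.75% to 7.08% of reads had an unread base at position 20, against at most 8.35e-06% in the dendritic cell libraries. The labels name no run or batch, and whatever goes with this difference cannot be told apart from the cell type.

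The members of the cluster are conserved in vertebrates, are thought to come from a shared primary transcript, and are best known from sensory cells, such as the hair cells of the inner ear and the photoreceptors, where they are abundant. A change in the seed of miR-96 causes hearing loss. In immune cells, miR-182 is induced by interleukin-2 in activated helper T cells, where it targets Foxo1. A miRNA finds its targets mainly through its seed, bases 2 to 8 counted from its 5′ end, so a small shift of the 5′ end gives another seed.

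The 3 mature 5p arms are shown because their seeds are near-identical. The sequences are RefSeq's (GRCm38.p6), with the seed in capitals.
miR-183-5p: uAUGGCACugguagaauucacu
miR-96-5p: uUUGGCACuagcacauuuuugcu
miR-182-5p: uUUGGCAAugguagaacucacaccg
The seeds of miR-183-5p and miR-96-5p differ at 1 base, those of miR-96-5p and miR-182-5p at 1 base and those of miR-183-5p and miR-182-5p at 2 bases. Over the first 20 bases, aligned from base 1 without gaps, miR-183-5p and miR-182-5p share 17, miR-183-5p and miR-96-5p 13, and miR-182-5p and miR-96-5p 12. So the pair that is nearest along the whole molecule is the pair that is least alike in the seed. The other arms detected with the seed of miR-183-5p, of miR-96-5p or of miR-182-5p numbered 0. miR-1271-5p, a miRNA with the seed of miR-96-5p, was not analysed here.

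In GENCODE M21 (GRCm38) the genes lie on the minus strand of chromosome 6. Mir183 (30169668 to 30169737) comes first in the direction of transcription, followed after 116 bases by Mir96 (30169446 to 30169551) and after a further 3453 bases by Mir182 (30165918 to 30165992). The cluster spans 3820 bases, overlaps no annotated gene or exon, and is therefore intergenic. Its nearest neighbours are Rncr4, a lincRNA 3155 bases away, and the protein-coding Nrf1, 12459 bases away, both on the plus strand. The hairpins are shown with their mature arms in capitals, since the reads fall on 1 arm of each.
miR-183: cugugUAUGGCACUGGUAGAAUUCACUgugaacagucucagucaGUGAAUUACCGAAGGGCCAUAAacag
miR-96: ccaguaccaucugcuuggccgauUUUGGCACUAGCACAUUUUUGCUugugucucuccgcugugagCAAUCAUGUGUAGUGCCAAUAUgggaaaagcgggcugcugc
miR-182: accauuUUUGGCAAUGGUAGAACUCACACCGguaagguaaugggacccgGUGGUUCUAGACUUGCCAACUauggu

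Nearly all reads came from the 5p arms. The 20 libraries together held 188097 reads of miR-183-5p and 50 of miR-183-3p, so the 3p arm made up 0.0266% (95% Wilson interval 0.0202% to 0.035%). For miR-182 there were 324691 reads of the 5p arm and 16 of the 3p arm, or 0.00493% (0.00303% to 0.008%). miR-96-5p had 1097 reads and miR-96-3p 0, which allows a 3p share of up to 0.273% when 3 reads are taken as the limit of a count of 0 (the upper Wilson bound is 0.349%). Reads of miR-183-3p were found in 7 libraries, with the highest values in the LPS macrophages, at 12 reads in the wild type and 21 in the knockout. These intervals and limits cover counting error only, since PCR copies are not separate molecules.

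The 5p arms differed in level. miR-182-5p ran from 378 CPM to 738 CPM in dendritic cells, with a median of 576, and from 1794 to 6215 in macrophages, with a median of 3131. miR-183-5p ran from 148 to 348 CPM (median 261) and from 1052 to 4125 (median 1855). By level they ranked 74 and 96 among the 1228 detected arms in dendritic cells and 30 and 39 in macrophages. miR-96-5p, encoded between them, was far lower, at 0.58 to 3.72 CPM (median 1.97) in dendritic cells and 5.29 to 21.8 (median 10.8) in macrophages. It rested on 4 to 33 reads per dendritic cell library and 38 to 171 reads per macrophage library. Within each cell type the 3 arms kept the order miR-182-5p, miR-183-5p, miR-96-5p in every library, and miR-96-5p stood at 0.167% to 1.53% of miR-183-5p. Ligation bias between small RNAs was not measured, so a ratio between 2 miRNAs is a ratio of reads.

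**Figure D1:**
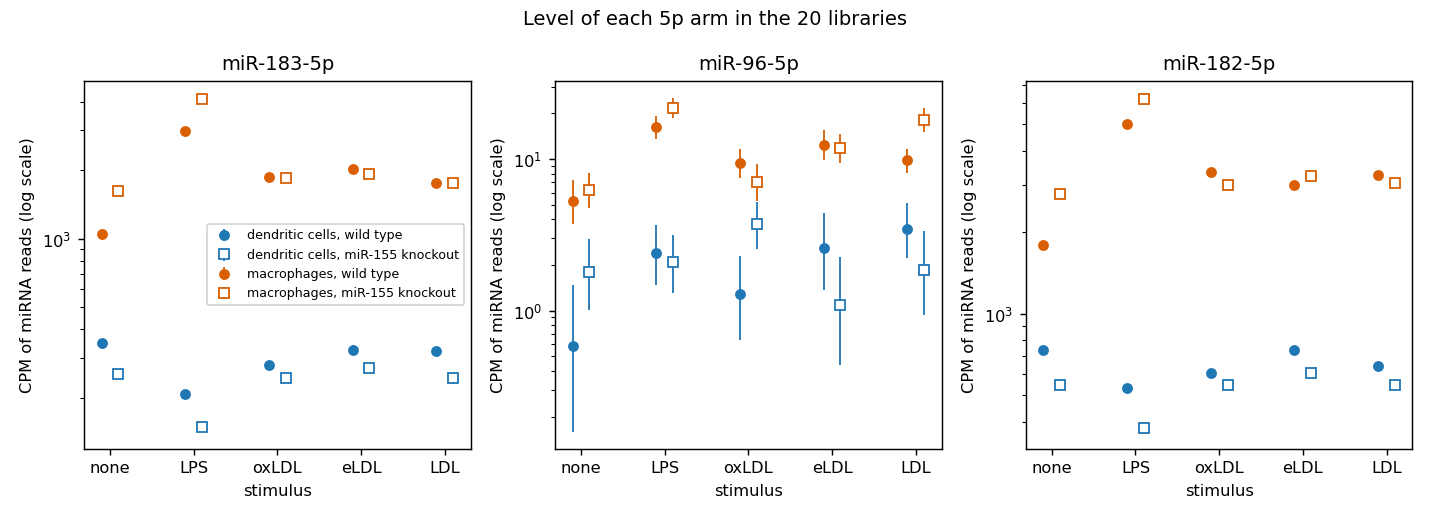
CPM of miRNA reads (log axis) of miR-183-5p, miR-96-5p and miR-182-5p in each library, by stimulus; bars are 95% Poisson intervals of the count and are shorter than most symbols. Filled circles are wild type and open squares miR-155 knockout. All 10 macrophage libraries lie above all 10 dendritic cell libraries for each arm, and the 2 LPS libraries are the highest macrophage libraries for miR-183-5p and miR-182-5p.

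Macrophages held more of all 3 arms than dendritic cells. For miR-183-5p the fitted difference was 3.05 ± 0.09 (log2 ± SE), or 8.28-fold, with an adjusted p of 5.91e-15 by edgeR's quasi-likelihood test with Benjamini-Hochberg adjustment over all 378 tested arms. For miR-182-5p it was 2.62 ± 0.09 (6.15-fold, edgeR adjusted p = 4.26e-14) and for miR-96-5p 2.54 ± 0.26 (5.8-fold, edgeR adjusted p = 1.53e-07). The lowest macrophage library was above the highest dendritic cell library for each of them, and how many of all tested arms separate in this way was not counted. Differences between the cell types were the rule here: 80.2% of the tested arms passed, and 42.3% of the tested arms were higher in macrophages, so passing the test does not set the cluster apart. The p-values measure the departure of the genotypes from parallel stimulus responses and hold no spread between cultures. By size of the difference miR-183-5p ranked 40, miR-182-5p 43 and miR-96-5p 44 of 378. The growth factor and the share of unread bases at position 20 differ along with the cell type and cannot be told apart from it.

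The share of the whole cluster among miRNA reads was 0.0528% to 0.109% in dendritic cells and 0.285% to 1.04% in macrophages. The matched ratios of the conditions varied widely around the fitted value. For miR-183-5p the macrophage level was 3.03 times that of the dendritic cells in unstimulated wild-type cultures and 27.8 times in LPS-treated knockout cultures. The unstimulated wild-type macrophages had the lowest miR-183-5p and miR-182-5p of all macrophage libraries, at 1052 and 1794 CPM, and the LPS-treated knockout dendritic cells had the lowest of all libraries, at 148 and 378 CPM.

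In macrophages, LPS went with more of the cluster. miR-183-5p stood at 1052 CPM without stimulus and 2963 with LPS in the wild type, and at 1621 and 4125 in the knockout. miR-182-5p went from 1794 to 5033 CPM and from 2763 to 6215. miR-96-5p had 5.29 CPM without and 16.2 with LPS, and 6.26 and 21.8 in the knockout. For miR-183-5p and miR-182-5p both LPS libraries were above the other 8 macrophage libraries, while for miR-96-5p the wild-type LPS library lay below the knockout LDL library, at 18.1 CPM. How many of all tested arms had both LPS libraries on top was not counted. The fitted difference against no stimulus was 1.46 ± 0.18 for miR-183-5p (2.75-fold, edgeR adjusted p = 5.13e-05) and 1.36 ± 0.19 for miR-182-5p (2.56-fold, edgeR adjusted p = 0.000115). That of miR-96-5p was 1.75 ± 0.53 (3.37-fold, edgeR adjusted p = 0.0277), and this call was lost when any of 6 libraries was left out, namely the 2 unstimulated macrophage libraries and the 4 LPS libraries of both cell types (1.58 to 1.91 over the libraries left out). Of all tested arms 19.6% passed in this comparison, 13.0% as higher. By p-value miR-183-5p ranked 4 and miR-182-5p 7 of 378, and by size of the difference miR-96-5p ranked 19, miR-183-5p 27 and miR-182-5p 32.

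The lipoprotein libraries give a second reference that holds no unstimulated library. miR-183-5p was at 1862 (oxLDL), 2028 (eLDL) and 1759 CPM (LDL) in wild-type macrophages and at 1848, 1925 and 1762 in knockout ones. miR-182-5p was at 3349, 2983 and 3259 CPM, and at 2995, 3227 and 3035. These 6 libraries lay close together, whatever the lipoprotein and the genotype. Against their mean, LPS was higher by 1.04 ± 0.14 for miR-183-5p (2.05-fold, edgeR adjusted p = 0.00022) and by 0.95 ± 0.14 for miR-182-5p (1.94-fold, edgeR adjusted p = 0.00045), where 13.2% of tested arms passed. miR-96-5p had 9.38, 12.4 and 9.76 CPM in the wild type and 7.06, 11.8 and 18.1 in the knockout, and its difference of 0.88 ± 0.40 did not pass (edgeR adjusted p = 0.174).

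The lipoproteins themselves gave no call against no stimulus in macrophages. The differences were 0.42 ± 0.15 for miR-183-5p (edgeR adjusted p = 0.0815), 0.40 ± 0.15 for miR-182-5p (0.104) and 0.87 ± 0.45 for miR-96-5p (0.25), where 12.7% of tested arms passed. The genotypes differed in the values behind this mean. In wild-type macrophages the 3 lipoprotein libraries had 1.67 to 1.93 times the miR-183-5p of the unstimulated library, and in knockout macrophages 1.09 to 1.19 times. Without the unstimulated knockout library the differences were 0.70 for miR-183-5p and 0.72 for miR-182-5p and both passed, and without the unstimulated wild-type library they were 0.17 and 0.12. This comparison thus rested on which unstimulated library was used.

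In dendritic cells, LPS gave no call for the cluster. miR-183-5p stood at 348 CPM without stimulus and 207 with LPS in the wild type, and at 254 and 148 in the knockout. miR-182-5p stood at 738 and 531 CPM, and at 548 and 378. As shares of miRNA reads both arms were thus at their lowest with LPS within each genotype. The fit scales libraries by TMM, a method that takes most miRNAs as the reference, and gave -0.34 ± 0.18 for miR-183-5p (edgeR adjusted p = 0.208), -0.078 ± 0.19 for miR-182-5p (0.84) and 1.29 ± 0.65 for miR-96-5p (0.175), where 22.2% of tested arms passed. With total miRNA reads as the scale the median of all tested arms moved from -0.05 to -0.47, and the differences of miR-183-5p and miR-182-5p were -0.76 and -0.50 and passed. A change of scale moves all arms nearly alike, so the distance of an arm from this median stays about the same by construction. On both scales miR-183-5p lay below the median and miR-182-5p close to it.

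The TLR and NF-kB induced miRNAs, such as miR-155-5p and miR-146b-5p, were taken as a list for comparison. In dendritic cells 6 of its 10 members rose with LPS and none fell (median 0.73 against -0.051 over all tested arms, of which 10.3% rose). In macrophages 3 rose, miR-132-3p, miR-146a-5p and miR-147-3p, by 1.03 ± 0.22, 1.13 ± 0.20 and 1.46 ± 0.24 (edgeR adjusted p = 0.00264, 0.000644 and 0.0006), and none fell (median 0.71 against 0.14 over all tested arms, of which 13.0% rose). Among its most abundant members, miR-146b-5p rose by 0.76 ± 0.14 in dendritic cells (edgeR adjusted p = 0.000785) and had a difference of -0.023 ± 0.14 in macrophages (0.899). Since LPS was fitted over both genotypes, the value of miR-155-5p includes the knockout libraries, where its gene is deleted. For the cluster, the calls were in macrophages and none were in dendritic cells.

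That difference was tested itself. The LPS effect in macrophages minus that in dendritic cells was 1.79 ± 0.26 for miR-183-5p (edgeR adjusted p = 0.000193) and 1.43 ± 0.26 for miR-182-5p (edgeR adjusted p = 0.00185), where 12.4% of tested arms passed and 7.67% passed as larger in macrophages. Both arms kept this call under every alternative setting that fits both cell types together, and without each library in turn. For miR-96-5p the value was 0.46 ± 0.86 (edgeR adjusted p = 0.795), which its counts do not resolve. The LPS dose and time are known for dendritic cells only, so dose, time and cell type cannot be told apart in this difference.

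**Figure D2:**
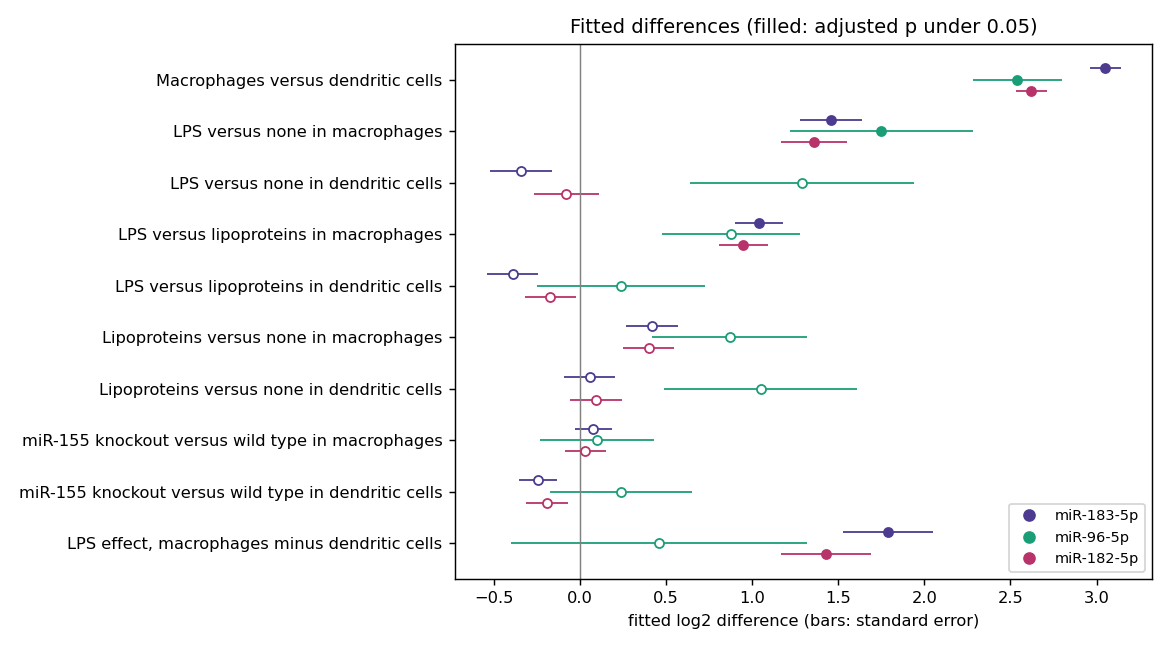
Fitted log2 differences (x axis) with their standard errors for the 3 arms in 10 comparisons (y axis); filled points have an edgeR adjusted p under 0.05. miR-183-5p and miR-182-5p lie at 1.46 and 1.36 for LPS in macrophages and at -0.34 and -0.078 for LPS in dendritic cells, and the bars of miR-96-5p are the widest.

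The lipoproteins gave no call for the cluster in dendritic cells either. miR-183-5p was at 278 (oxLDL), 324 (eLDL) and 321 CPM (LDL) in the wild type and at 244, 269 and 243 in the knockout. The differences against no stimulus were 0.057 ± 0.15 for miR-183-5p, 0.095 ± 0.15 for miR-182-5p and 1.05 ± 0.56 for miR-96-5p, with edgeR adjusted p of 0.951, 0.875 and 0.464, where 0.529% of tested arms passed. LPS against the lipoproteins gave -0.39 ± 0.15 for miR-183-5p (edgeR adjusted p = 0.0694), which passed under 4 alternative settings and without either unstimulated macrophage library (-0.53 to -0.26 over the libraries left out). miR-182-5p gave -0.17 ± 0.15 (0.474) and miR-96-5p 0.24 ± 0.49 (0.777), where 25.4% of tested arms passed. The lipoprotein effect in macrophages minus that in dendritic cells was 0.36 ± 0.21, 0.31 ± 0.21 and -0.18 ± 0.68 for miR-183-5p, miR-182-5p and miR-96-5p (edgeR adjusted p = 0.425, 0.508 and 0.931), where 6.88% of tested arms passed.

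Loss of miR-155 gave no call for any of the 3 arms in the fit of all libraries with TMM scaling. As shares of miRNA reads, knockout dendritic cells had less miR-183-5p than the wild type in 5 of 5 stimulus states, at 0.717 to 0.879 times. They had less miR-182-5p in 5 of 5, at 0.712 to 0.904 times. The 5 states are not replicates, and how many of all arms were lower in 5 of 5 was not counted. On the TMM scale the fitted differences of miR-183-5p and miR-182-5p were -0.24 ± 0.11 and -0.19 ± 0.12 (edgeR adjusted p = 0.229 and 0.355). That of miR-96-5p was 0.24 ± 0.41 (0.802), where 8.47% of tested arms passed. In macrophages they were 0.08 ± 0.11 for miR-183-5p, 0.032 ± 0.12 for miR-182-5p and 0.10 ± 0.33 for miR-96-5p, with edgeR adjusted p of 0.709, 0.899 and 0.886, where 23.8% passed. With upper-quartile scaling the macrophage values were 0.33 for miR-183-5p and 0.28 for miR-182-5p and both passed (edgeR adjusted p = 0.014 and 0.0406), and miR-183-5p in dendritic cells passed at -0.36 on total miRNA reads (0.0476) and at -0.30 in a fit of dendritic cells alone (0.041). As shares of miRNA reads, the knockout macrophages were above the wild type at no stimulus (1.54 times for both miR-183-5p and miR-182-5p) and with LPS (1.39 and 1.23 times), and between 0.894 and 1.08 times with the lipoproteins.

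The knockout effect in macrophages minus that in dendritic cells was 0.32 ± 0.16 for miR-183-5p, 0.23 ± 0.17 for miR-182-5p and -0.14 ± 0.52 for miR-96-5p, with edgeR adjusted p of 0.235, 0.424 and 0.901, where 15.6% of tested arms passed. The LPS effect did not differ by a call between the genotypes. Knockout minus wild type was -0.29 ± 0.27 for miR-183-5p and -0.35 ± 0.29 for miR-182-5p in dendritic cells (edgeR adjusted p = 0.991 for both), and 0.41 ± 0.27 and 0.25 ± 0.29 in macrophages (0.861 and 0.95). For miR-96-5p the values were -0.56 ± 1.0 (0.991) and 0.32 ± 0.84 (0.975). This fit called 0.00% of tested arms in dendritic cells, with 19 at an unadjusted p under 0.05 by edgeR, and 1.32% in macrophages. It has 6 residual degrees of freedom.

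miR-183-5p and miR-182-5p went together across libraries. On the log2 scale of TMM-scaled CPM their Pearson r was 0.998 over the 20 libraries, 0.967 after the mean of each culture was subtracted, 0.874 over the 10 dendritic cell libraries and 0.982 over the 10 macrophage libraries. miR-96-5p followed them in macrophages (0.814 with miR-183-5p and 0.804 with miR-182-5p) and not in dendritic cells (-0.319 and -0.262), where its counts were 4 to 33 reads. These values are descriptions over libraries that share the growth factor and the share of unread bases within a cell type. The ratio of miR-182-5p to miR-183-5p nevertheless differed between the cell types, at 1.99 to 2.56 (median 2.25) in dendritic cells and 1.47 to 1.85 (median 1.7) in macrophages, with no overlap. Within dendritic cells it was highest in the 2 LPS libraries, at 2.56 and 2.54. How many other pairs of arms have ratios that separate in these ways was not counted.

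**Figure D3:**
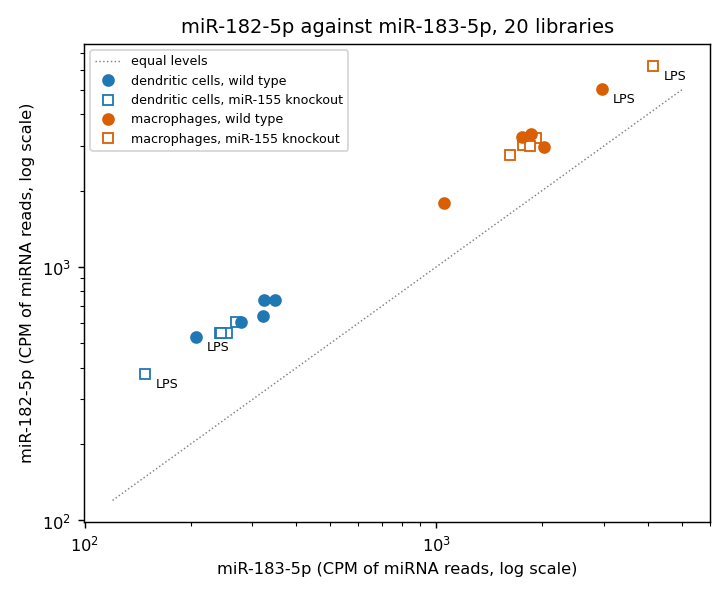
miR-182-5p against miR-183-5p (both in CPM of miRNA reads, log axes), 1 point per library; circles are wild type, squares miR-155 knockout, and LPS libraries are marked. Every library lies above the dotted line of equal levels, and the LPS libraries sit at the low end of the dendritic cells and at the high end of the macrophages.

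The arms most like the pair were chosen by Pearson r with the mean log2 level of miR-183-5p and miR-182-5p. Over the 20 libraries they were miR-9-3p (0.97), miR-5107-3p (0.97), miR-150-5p (0.96), miR-5107-5p (0.96) and miR-9-5p (0.96). All 5 are higher in macrophages than in dendritic cells. miR-9-5p, for instance, had a mean of 12811 CPM in macrophages and 9.31 in dendritic cells. With the culture means subtracted they were miR-361-3p (0.93), miR-361-5p (0.86), miR-103-3p (0.83), miR-6537-3p (0.81) and miR-501-3p (0.79). As a description, since they were chosen for following the pair, the LPS differences of miR-361-3p and miR-361-5p were 0.89 ± 0.18 and 0.95 ± 0.17 in macrophages and 0.089 ± 0.18 and -0.19 ± 0.17 in dendritic cells.

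Because the cluster is known from sensory and epithelial cells, markers of other cell types were read beside it. Of the 8 epithelial miRNAs, miR-205-5p was at 0 in all dendritic cell libraries and at most 1.06 CPM in macrophages, and miR-375-3p at most 1.02 CPM. The other 6 were tested. Against no stimulus LPS called 0 of 6 in macrophages (median 0.51 against 0.14 over all tested arms, of which 19.6% were called). In dendritic cells it called 3 of 6 (median 0.55 against -0.051 over all tested arms, of which 22.2% were called). There miR-141-3p, miR-200c-3p and miR-203-3p rose by 0.96 ± 0.32, 0.70 ± 0.24 and 1.71 ± 0.45 (edgeR adjusted p = 0.0386, 0.047 and 0.00987). Between the cell types all 6 were called, where 80.2% of all tested arms were. Of the 6, miR-141-3p and miR-200c-3p were higher in macrophages, by 1.41 ± 0.14 and 2.07 ± 0.11 (edgeR adjusted p = 9.94e-08 and 1.63e-11), and 4 were lower. The summed level of the 8 was 239 to 275 CPM in the LPS macrophages, 192 to 249 in the other macrophages, 183 to 255 in the LPS dendritic cells and 165 to 284 in the other dendritic cells. The neuronal and sensory list (5 members, sums of 90.7 to 138 CPM in macrophages and 130 to 184 in dendritic cells) had miR-124-3p at 0 in every dendritic cell library and at most 1.64 CPM in macrophages. Of its 3 tested members 1 rose with LPS against no stimulus in dendritic cells and 2 rose in macrophages, miR-128-3p by 0.57 ± 0.18 and miR-129-5p by 2.87 ± 0.57 (edgeR adjusted p = 0.0325 and 0.00166). Over all tested arms 10.3% rose with LPS in dendritic cells and 13.0% in macrophages.

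Markers of lymphoid cells were read in the same way. The 2 tested members of the 4 listed, miR-150-5p and miR-181c-5p, were higher in macrophages by 3.36 ± 0.15 and 3.53 ± 0.11 (edgeR adjusted p = 1.17e-11 and 1.57e-14), and rose with LPS there by 0.92 ± 0.31 and 1.01 ± 0.22 against no stimulus (0.0466 and 0.00347). Over all tested arms 42.3% were higher in macrophages and 13.0% rose with LPS there. Neither lymphoid member was called for LPS against the lipoproteins in macrophages (median 0.075 against 0.058 over all tested arms, of which 13.2% passed). The summed level of the list was 495 to 908 CPM in the LPS macrophages, 202 to 1092 in the other macrophages and 44 to 83.1 in dendritic cells. The lymphoid markers miR-20b-5p and miR-363-3p were at most 0.594 and 0.916 CPM in macrophages. Of the mast cell and erythroid list, 3 of 4 members were matched, with sums of 1.15 to 18.1 CPM and no call for LPS against either reference. The stromal list (sums of 30.5 to 527 CPM) had no call for LPS against no stimulus. Of its 3 tested members 1, miR-199a-3p, rose for LPS against the lipoproteins in dendritic cells, where 25.4% of all tested arms passed. The part of these cells in the levels of the cluster was not tested, and in bulk RNA more cells of a type and more RNA per cell cannot be told apart.

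The 5′ ends set miR-183-5p apart from its relatives. Of its reads, 76.9% began at the annotated base and 23% began 1 base downstream. For miR-182-5p 0.577% of reads, and for miR-96-5p 0.365%, began 1 base downstream. The most abundant forms of miR-183-5p at the 2 starts are shown with bases 2 to 8 in capitals, since the later start moves the seed.
annotated start: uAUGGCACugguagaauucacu
1 base downstream: aUGGCACUgguagaauucacug
The downstream seed differs from the annotated one at 6 of its positions, and no detected arm has it. Its share was even across the libraries, at 19.8% to 24.6% in dendritic cells (median 22%) and 22.1% to 24.3% in macrophages (median 23%). The LPS libraries had 24.3% (wild type) and 20.9% (knockout) in dendritic cells, against 19.8% to 24.6% in the other 8. In macrophages they had 22.1% and 23.3% against 22.5% to 24.3%, so the wild-type LPS library lay below the other 8 and the knockout one among them.

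The 3′ end of miR-182-5p differed with LPS and, in part and less strongly, with the lipoproteins. The forms of 22 to 25 nt, all exact matches to the hairpin, are shown because they differ only in where they stop. A 21-nt form with an added A has the same sequence as the 22-nt form and cannot be told apart from it.
22 nt: uUUGGCAAugguagaacucaca
23 nt: uUUGGCAAugguagaacucacac
24 nt: uUUGGCAAugguagaacucacacc
25 nt: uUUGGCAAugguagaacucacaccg
In dendritic cells the 22-nt form made up 42.6% and 43.2% of miR-182-5p reads in the wild-type and knockout LPS libraries, against 13.1% to 23.5% in the other 8. The 24-nt form made up 7.6% and 7.93%, against 17.5% to 34.3%. In both shares the lipoprotein libraries lay between no stimulus and LPS. Their 22-nt share was 16.3% to 23.5%, against 13.1% and 14.4% without stimulus. Their 24-nt share was 17.5% to 24.7%, against 33.6% and 34.3% without stimulus. In macrophages the 24-nt form was also lower with LPS, at 23.5% and 24.9% against 37.9% to 46.5%. There the 25-nt form was higher, at 34.5% and 30.9% against 14.8% to 20.5%, as was the 22-nt form, at 16.2% to 16.9% against 8.53% to 12.9%. The 22-nt share of macrophages was 10.2% and 8.53% without stimulus and 10.5% to 12.9% with the lipoproteins.

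Both genotypes gave this pattern, and LPS and other libraries did not overlap in these shares. They did overlap in the 21-nt and 25-nt shares of dendritic cells and in the 23-nt share of macrophages. Over all arms, separation by length was counted only for the most abundant length of each arm, not for its other lengths. The share of an arm's most abundant length was lower in both LPS libraries than in the other 8 for 43.2% of 125 arms in dendritic cells and 44.6% of 121 arms in macrophages, so a shift as such was common. For miR-182-5p that length was 23 nt in dendritic cells, at a mean of 14.6% with LPS against 25.9% in the others. In macrophages it was 24 nt, at 24.2% against 42.6%. In size the shift of miR-182-5p was among the larger ones. The share of miR-182-5p reads that changed length class was 29.1% in dendritic cells, rank 5 of 125 arms (median 7.17%), and 22% in macrophages, rank 7 of 121 (median 5.8%). For miR-183-5p it was 4.55% and 6.68%. The mean length of miR-182-5p was 22.72 nt with LPS against 23.27 nt in the other dendritic cells. That difference of -0.55 nt ranked 6 from the lowest of 125 arms (median -0.07). In macrophages it was 23.65 against 23.57 nt. That difference of 0.085 nt was small in size but ranked 2 from the highest of 121 arms (median -0.10). This reference pools unstimulated and lipoprotein libraries, and the spread of the means between libraries is not given, so no direction is read from the macrophage value. No test was made of these shares, which rest on 2 LPS libraries per cell type.

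**Figure D4:**
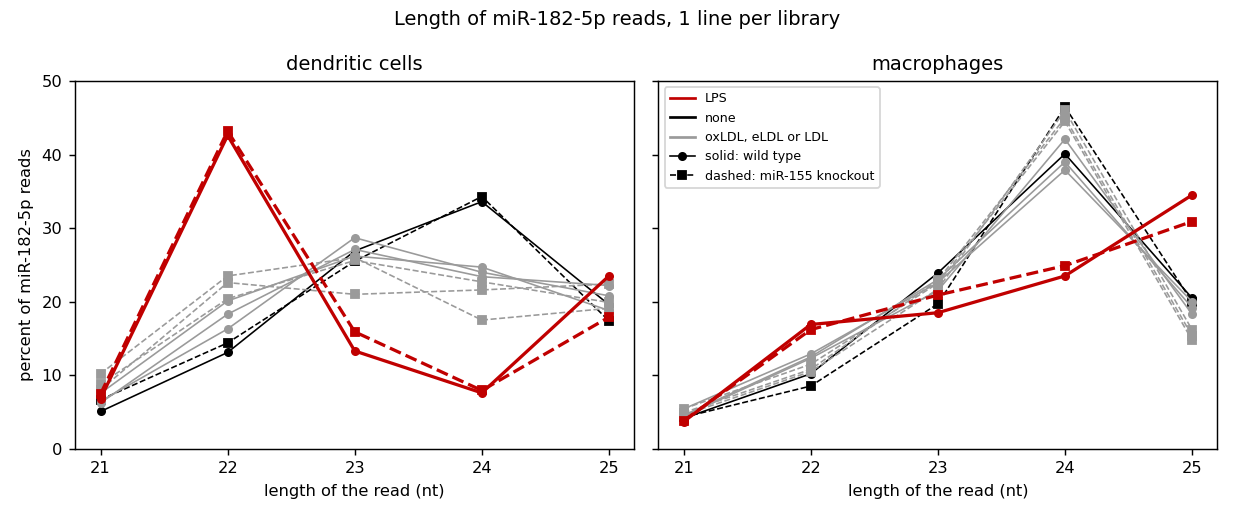
Percent of miR-182-5p reads (y axis) by read length in nt (x axis), 1 line per library; LPS in red, no stimulus in black, lipoproteins in grey, knockout dashed. The LPS lines peak at 22 nt in dendritic cells and at 25 nt in macrophages, and the 24-nt share is lowest with LPS in both.

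miR-183-5p carried 3′ bases that are not in the hairpin. Reads with 1 to 3 added A made up 7.89% to 11.7% of its reads in dendritic cells and 5.48% to 11.3% in macrophages. In macrophages the share was lowest with LPS, at 5.48% in the wild type and 6.56% in the knockout, against 8.41% to 11.3% in the other 8 libraries. Both LPS libraries lay below the other 8 for 13.2% of the 121 arms, and miR-183-5p had the fourth lowest difference among them, at -3.99 percentage points against a median of -0.22. In dendritic cells the LPS libraries, at 11.7% and 10.3%, overlapped the others, at 7.89% to 11%, with a difference of 2.01 percentage points that was the fifth highest of 125 arms (median 0.17). Both LPS libraries were above the other 8 for 12.8% of the 125 arms. miR-182-5p carried added U more often, at 5.92% to 8.86% in dendritic cells and 4.39% to 6.42% in macrophages, than added A, at 2.59% to 4.53% and 1.84% to 3.23%. An A added to its 21-nt form is counted as an exact match, so the share of added A leaves such reads out. Counting reads with added A or U gave 3142 CPM in place of 2963 for miR-183-5p in the wild-type LPS macrophages, and 4422 in place of 4125 in the knockout ones.

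**Figure D5:**
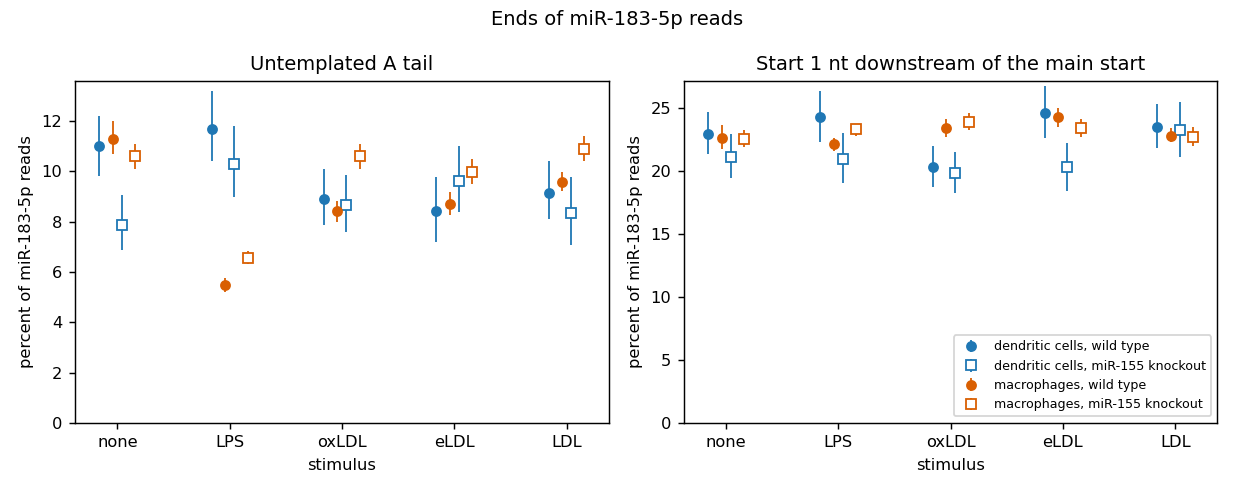
Percent of miR-183-5p reads with an untemplated A tail (left) and with a start 1 nt downstream (right) in each library, by stimulus; bars are 95% Wilson intervals. The 2 LPS macrophage libraries, at 5.48% and 6.56%, have the lowest A tail shares, and the downstream start stays between 19.8% and 24.6%.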

How the data were processed

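The authors deposited, for each library, its distinct tags of 18 to 45 nt with their read counts, without adapter. Per the submitters' processing notes CASAVA 1.8.2 was used; the sources used here give neither its role nor an adapter tool or aligner. Tags from 18 to 26 nt long were compared base for base with 1174 mouse hairpins of GENCODE M21 (GRCm38). Arms were split at the loop predicted by RNAfold 2.7.2, and a read counted if it started within 2 nt of the arm's most abundant start. Tags of several arms were shared equally; no tag of the cluster was shared. Reads with an unread base are not matched. The libraries had 5068172 to 11780814 miRNA reads. Intervals are at 95% and cover counting error only.

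Arms that reached 5 CPM in 2 or more libraries were tested (378 arms, 99.96% to 99.98% of miRNA reads) with edgeR 4.0.16 (R 4.3.3), quasi-likelihood F test, TMM scaling and Benjamini-Hochberg adjustment, called under 0.05. All 20 libraries entered 1 fit with terms for culture and for each stimulus per cell type, which leaves 8 residual degrees of freedom. Its spread is the departure of the genotypes from parallel stimulus responses. The p-values measure only that spread. They leave out the spread between cultures, which bears on the cell type and knockout comparisons. Standard errors are the difference divided by the square root of F. The lipoprotein comparisons use the mean of oxLDL, eLDL and LDL, and several comparisons share the unstimulated libraries. The script was checked on simulated counts.

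End shares are shares of an arm's reads. An added tail is 1 to 3 A or U after at least 20 matched bases. Background for ends and lengths is every arm with at least 500 reads in each library of the cell type. The share that changed length class is the summed absolute difference between the mean length profiles of the LPS and the other libraries, counted once. Arms named are the members, their seed relatives, the 5 most alike by r, and at most 4 of each marker list, with those called added where few were. The members and lists were chosen with earlier results of these data known. Alternatives were other scaling, DESeq2 1.42.0, other filters, other tag choices, other samples in the fit and leaving out each library. Ignoring base 20 in matching, and the background of the ends, were added after seeing the data.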

Additional observations from a re-analysis of the deposited data

Results flagged for a closer look

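The effect of LPS differed between the cell types for miR-183-5p, by 1.79 ± 0.26 (macrophages minus dendritic cells, log2, edgeR adjusted p = 0.000193), and for miR-182-5p, by 1.43 ± 0.26 (edgeR adjusted p = 0.00185), by a test of the interaction. As shares of miRNA reads, both LPS libraries were above both unstimulated libraries in macrophages for these arms. In dendritic cells both LPS libraries were below both unstimulated ones. How many of all arms separate in these ways was not counted. On the TMM scale of the fit, the dendritic cell differences were -0.34 ± 0.18 for miR-183-5p and -0.078 ± 0.19 for miR-182-5p, and neither was called. The LPS dose and time in macrophages are not given.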

How the results depend on the processing

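For miR-183-5p and miR-182-5p, the calls for cell type and for LPS in macrophages against both references held under every setting that tests them. So did their calls for the difference of the LPS effect between cell types. All of these calls also held without each library in turn. A fit of 1 cell type alone tests no difference between cell types. Elsewhere values moved, and the cause was not tested. With total miRNA reads as the scale, LPS in dendritic cells gave -0.76 for miR-183-5p and -0.50 for miR-182-5p, and against the lipoproteins -0.66, -0.45 and, for miR-96-5p, -0.039. On that scale the lipoproteins gave 0.50 and 0.48 for miR-183-5p and miR-182-5p in macrophages and -0.097 and -0.059 in dendritic cells, and the knockout gave -0.36 for miR-183-5p in dendritic cells. The difference of the knockout effect between cell types was then 0.56 for miR-183-5p, 0.47 for miR-182-5p and 0.094 for miR-96-5p, against 0.32, 0.23 and -0.14, and that of the lipoprotein effect 0.028 for miR-96-5p. With upper-quartile scaling the same knockout difference was 0.57, 0.48 and 0.11, the knockout effect in macrophages 0.33 for miR-183-5p and 0.28 for miR-182-5p, the lipoprotein effect in dendritic cells -0.06 and -0.022, and LPS against lipoproteins in dendritic cells -0.36 for miR-183-5p. DESeq2 called the lipoprotein effect on miR-183-5p in macrophages at 0.37. With 1 lipoprotein effect it was 0.42, and LPS against lipoproteins in dendritic cells -0.39, both called. In a fit of dendritic cells alone, miR-183-5p gave -0.40 for LPS against lipoproteins and -0.30 for the knockout, both called.

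For miR-182-5p in dendritic cells, LPS against none gave 0.024 without a filter, 0.21 at 50 CPM or more and 0.0015 with tags of 20 to 24 nt, LPS against lipoproteins 0.05 at 50 CPM or more and 0.0046 with tags of 20 to 24 nt, and the lipoproteins -0.0031 with those tags. miR-183-5p gave -0.0073 for the lipoproteins in dendritic cells without a filter and -0.014 with only the most abundant start, and 0.47 for the knockout difference between cell types at 50 CPM or more. miR-96-5p with LPS in macrophages gave 1.63 with only the most abundant start and was not called; at 50 CPM it is not tested. Ignoring base 20 in matching changed no call of the members.

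Leaving out 1 library at a time gave, for miR-96-5p, 1.58 to 1.91 for LPS in macrophages, -0.67 to 1.13 for the difference of the LPS effect between cell types, -1.32 to 0.48 for that of the lipoprotein effect, -0.40 to 0.26 for that of the knockout effect, -0.036 to 0.59 for LPS against lipoproteins in dendritic cells, and -0.19 to 0.50 and -0.066 to 0.28 for the knockout in dendritic cells and macrophages. For miR-183-5p it gave -0.53 to -0.26 for LPS against lipoproteins in dendritic cells, 0.17 to 0.70 for lipoproteins and -0.027 to 0.16 for the knockout in macrophages. For miR-182-5p it gave -0.30 to 0.036 for LPS in dendritic cells, and 0.12 to 0.72 for lipoproteins and -0.086 to 0.14 for the knockout in macrophages. An LPS library could not be left out of the fit of LPS by genotype. A condition left with 1 library is assumed to vary like the others.

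Over all tested arms, LPS in dendritic cells called 84 (39 higher), 151 (27 higher) on total reads and 54 to 55 without the unstimulated or the LPS wild-type library. LPS against lipoproteins called 96 (49 higher), 131 (28 higher) on total reads and 42 without the LPS wild-type library in dendritic cells, and 50 (32 higher), 60 (29 higher) on total reads and 74 (63 higher) on upper quartiles in macrophages. The difference of the LPS effect called 47 (29 higher), 94 (81 higher) on total reads and 24 to 29 without 1 of 3 libraries. The lipoproteins called 48 (24 higher) in macrophages, 56 (36 higher) on total reads, 52 (17 higher) on upper quartiles and 18 without the unstimulated wild-type library, and 2 in dendritic cells with 0 to 19 under other settings. The knockout called 32 (20 higher) in dendritic cells, 31 (11 higher) on total reads, 51 by DESeq2 and 17 to 18 without 1 of 4 libraries, and 90 (39 higher) in macrophages, 105 (63 higher) and 130 (96 higher). The cell type called 303 (160 higher), 298 (119 higher) on upper quartiles and 165 of 194 at 50 CPM or more. LPS by genotype called 0 to 2 in dendritic cells and 5 to 13 in macrophages. With 4 to 33 reads per dendritic cell library, counting error limits what can be said of miR-96-5p.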
